A study of Mus musculus with 4 samples.

Results

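The Schlafen genes of the mouse were followed in macrophages grown from bone marrow and kept with IL-4, a cytokine of alternative activation. The set is the 7 listed symbols Slfn1, Slfn2, Slfn3, Slfn4, Slfn5, Slfn8 and Slfn9, selected on family name and with their FPKM under both genotype labels already known. All of them were found among the 23259 gene symbols with a value. All 4 libraries came from C57BL/6 mice at 7 weeks of age after 24 h with IL-4, and no library without IL-4 was analysed here. Of these, 2 carry the genotype label wild type and 2 the label Sema6D-/-, for mice that lack the membrane-bound guidance protein Sema6D. How that allele was made is not stated in the labels, and nothing in them says that the libraries of 1 label came from separate mice, so errors and p-values cover no more than the scatter of these samples, which may be technical. Groups follow the genotype label, although titles begin with K for wild type and with W for Sema6D-/-. If the labels were exchanged, every direction, rank and ratio below would turn around, and what is given as left of the wild type level would be the reverse. Sema6d itself was near the detection limit, at 0.166 and 0.389 FPKM for wild type and 0.106 and 0.315 for Sema6D-/-, so its level does not check the labels. FPKM is the number of fragments per kilobase of transcript, scaled to the size of the library.

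Schlafen proteins are found in mammals and share an RNA-binding core, and many of the genes are induced by interferons. The short members consist of little more than this core, the intermediate members carry an added linker domain, and the long members also have a helicase-like end. Several long members of the family cut transfer RNA, which slows translation, while Slfn2 binds transfer RNA and is needed for the quiescence of T cells and the survival of monocytes.

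The 7 genes lie together on chromosome 11 of GRCm38.p6, the assembly that mm10 names, over 264 kb from 82951349 to 83215154. Slfn5 (82951349 to 82964850), Slfn2 (83065112 to 83070678), Slfn1 (83116820 to 83122670), Slfn4 (83175172 to 83190216) and Slfn3 (83191330 to 83215154) are on the plus strand. Slfn9 (82974316 to 82991830) and Slfn8 (83002125 to 83020810) are on the minus strand, with the pseudogene Slfn10-ps (83028123 to 83040533) beside them. Coding lengths put Slfn1 (1011 bases) and Slfn2 (1134) in the short group, Slfn4 (1806) and Slfn3 (1920) in the intermediate group, and Slfn5 (2652), Slfn8 (2730) and Slfn9 (2730) in the long group.

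The family holds near copies, which matters for any short-read value. The coding sequences of Slfn8 and Slfn9 were identical at 2531 of 2730 aligned bases (92.7%), with a longest identical run of 139 bases. A 90-base stretch of both, coding bases 76 to 165 in GENCODE M21, shows the typical case: it differs at 6 bases, the median over all such windows, and capitals mark them.
Slfn8: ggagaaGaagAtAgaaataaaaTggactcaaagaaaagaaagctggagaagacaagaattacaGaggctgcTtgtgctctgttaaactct
Slfn9: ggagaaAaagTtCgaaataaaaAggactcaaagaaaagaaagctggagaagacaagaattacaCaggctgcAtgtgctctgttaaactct

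Slfn3 and Slfn4 were identical at 1617 of 1787 aligned coding bases (90.5%), with a longest run of 95 bases. Over 1493 windows of 90 bases without a gap, the median number of differences was 3. A stretch with 3 differences is more alike than the pair as a whole. The one shown lies at coding bases 360 to 449 of Slfn3 and 258 to 347 of Slfn4, and capitals again mark what differs.
Slfn3: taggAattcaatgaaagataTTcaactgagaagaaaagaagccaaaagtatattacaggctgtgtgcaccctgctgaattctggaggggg
Slfn4: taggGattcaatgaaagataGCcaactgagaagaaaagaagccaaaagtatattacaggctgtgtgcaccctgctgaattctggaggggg

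Other pairs were less alike. Slfn1 and Slfn2 shared 68.7% of aligned coding bases, Slfn2 shared 70.8% with Slfn3 and 70.8% with Slfn4, and Slfn5 shared 58.6% with Slfn8 and 59.4% with Slfn9. As a measure of reads that could fall to either of several genes, every window of each transcript was looked up in all other annotated transcripts. At a window of 50 bases, 21.8% of Slfn3 windows occurred in another gene, with Slfn4 (13.1%) and the gene model Gm11427 (11.4%) leading. The same share was 15.4% for Slfn8 and 11.4% for Slfn9, where Slfn10-ps led with 10.7% and 8.44%, and 11.1% for Slfn4. It was 4.27% for Slfn2, 3.59% for Slfn5 and 0.606% for Slfn1. At 100 bases it fell to 4.93% for Slfn3, 3.71% for Slfn8 and 3.90% for Slfn9, and to at most 0.285% for each of the other 4. No source used here gives the read length or the handling of reads with several matches, so the values of Slfn3, Slfn4, Slfn8 and Slfn9 are uncertain by an amount that was not measured, and Slfn1, Slfn2 and Slfn5 are the clearer ones.

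**Figure D1:**
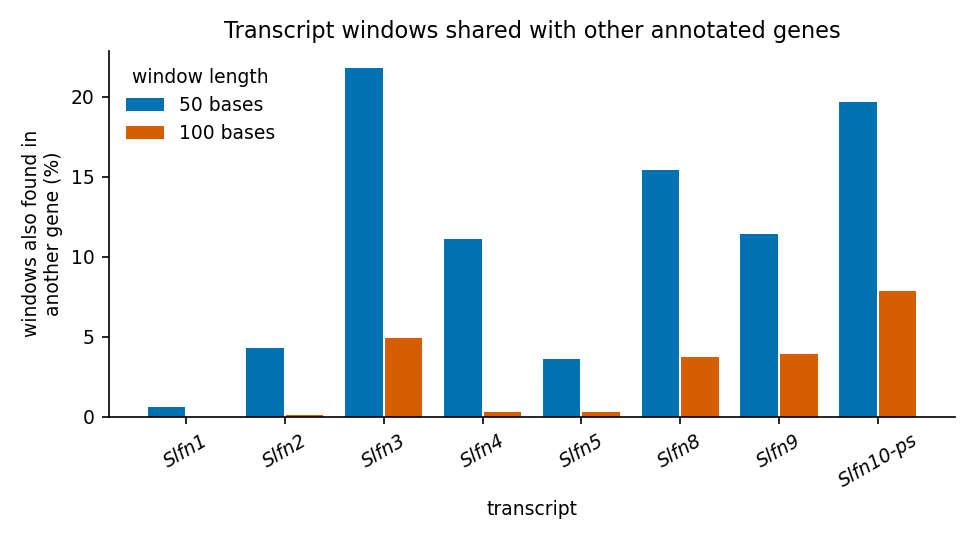
Share of transcript windows (%, vertical axis) of each Schlafen gene and of Slfn10-ps that occur letter for letter in another annotated gene, for windows of 50 bases and of 100 bases. Slfn3 has the highest share at 50 bases, 21.8%, and Slfn1 the lowest, 0.606%.

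The promoters split the family in a way the choice of genes did not use. Windows of 250 bases before to 50 bases after each start, from the RefSeq table of GRCm38.p6, were searched on both strands, and all 7 genes had a window. The core of the interferon-stimulated response element, GAAA and GAAA with any 2 bases between them, was searched as the letters that interferon regulatory factors bind. It stood in the windows of the 3 long members and of no other member, while 3.44% of all 32851 windows held it. It began 155 bases before the start of Slfn5, 48 before that of Slfn8 and 45 before that of Slfn9. The stretches around it follow, 5′ to 3′ on the strand of the gene, with the match in capitals.
Slfn5, chr11:82951912-82951984, plus strand: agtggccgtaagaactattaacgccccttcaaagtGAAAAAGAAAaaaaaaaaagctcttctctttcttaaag
Slfn8, chr11:83020814-83020893, minus strand: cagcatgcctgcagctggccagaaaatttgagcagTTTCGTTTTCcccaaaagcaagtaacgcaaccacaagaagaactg
Slfn9, chr11:82991831-82991910, minus strand: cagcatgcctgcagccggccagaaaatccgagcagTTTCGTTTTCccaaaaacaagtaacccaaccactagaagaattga

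The Slfn8 and Slfn9 matches are a shared stretch rather than separate cases: their 250 upstream bases were identical at 204 positions (81.6%). The windows of the short and intermediate members held another common word, ACTTCCTGG, which was picked after the promoters had been seen and has the GGAA core of ETS factor sites on its opposite strand. All 4 of them had it, against 0.843% of all windows, and it began 74 bases before the start of Slfn1, 55 before Slfn2, 42 before Slfn3 and 73 before Slfn4. They are printed in the same manner.
Slfn1, chr11:83116711-83116789, plus strand: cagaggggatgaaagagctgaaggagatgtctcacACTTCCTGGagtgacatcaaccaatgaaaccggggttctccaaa
Slfn2, chr11:83065022-83065100, plus strand: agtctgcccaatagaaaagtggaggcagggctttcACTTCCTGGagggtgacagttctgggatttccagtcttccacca
Slfn3, chr11:83191253-83191329, plus strand: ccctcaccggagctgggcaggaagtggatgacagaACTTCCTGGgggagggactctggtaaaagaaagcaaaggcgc
Slfn4, chr11:83175078-83175156, plus strand: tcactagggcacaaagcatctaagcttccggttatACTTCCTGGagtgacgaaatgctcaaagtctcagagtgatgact

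None of the 7 windows held the palindrome of STAT6, the factor that IL-4 activates, TTC and GAA with any 4 bases between (6.95% of all windows). GAGGAA, the core letters of PU.1 sites, was in the window of Slfn9 alone (28.3% of all windows). No printed promoter stretch overlaps a GENCODE M21 exon of the family. That of Slfn5 lies inside the annotated span of the gene, before a later start, and the other 6 lie before their genes. A match describes letters and says nothing about binding.

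Under IL-4, Slfn2 and Slfn5 made up most of the family. Per unit of transcript length, the wild type order was Slfn2 (mean 233 FPKM), Slfn5 (94.0), Slfn8 (22.4), Slfn1 (21.0), Slfn3 (5.32), Slfn4 (3.70) and Slfn9 (3.46). Only the neighbours Slfn8 and Slfn1 overlapped in that order, with means 1.07 times apart, while Slfn4 and Slfn9 were as close (1.07 times) without overlap. Among the 10115 genes whose mean reached 1 FPKM, the mean level of Slfn2 lay above 96.6% and that of Slfn5 above 89.5%, whereas Slfn9 lay above 11.8% and Slfn4 above 8.34%. In the libraries labelled Sema6D-/- the order was the same except at its end, where Slfn4 came last, and no neighbours overlapped.

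**Figure D2:**
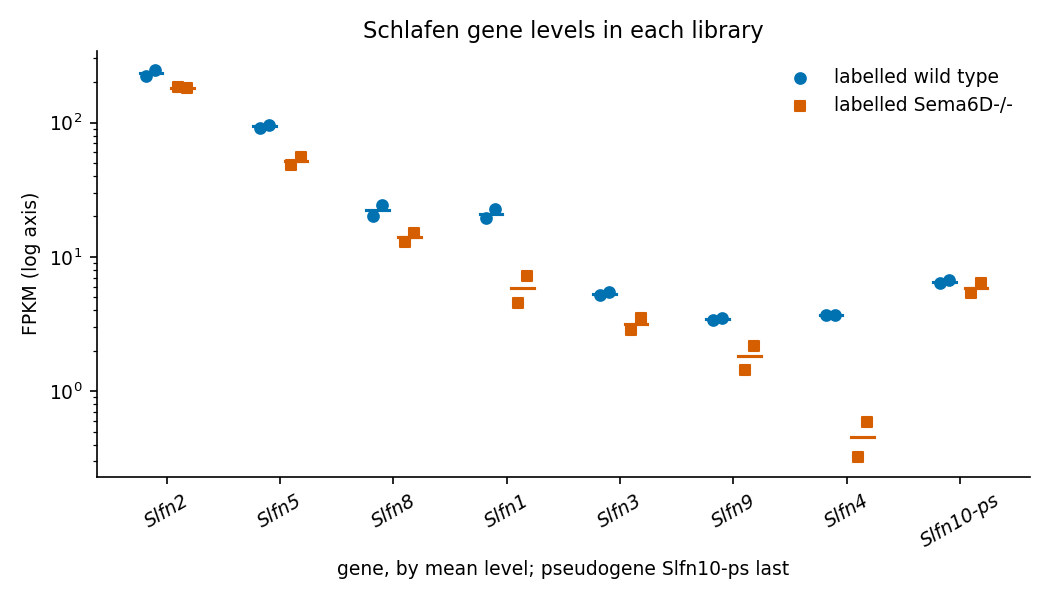
Level of each Schlafen gene and of Slfn10-ps in the 4 libraries (FPKM, log axis), with circles for the label wild type, squares for Sema6D-/- and a line at each mean. Every gene but Slfn10-ps has both squares under both circles, with the widest gap at Slfn4 (3.70 against 0.458 FPKM).

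Under the label Sema6D-/- all 7 members were lower, without overlap between the labels. The members were chosen with this contrast known, so their differences are a description and carry no test. For scale, 6 of 7 were lower and past the limma threshold of an adjusted p of 0.05, a call that 4.91% of the 10115 genes tested received in that direction (497 genes). Without overlap and lower were 7 of 7, against 27.4% of all genes tested. Leaving out wild type 2, Sema6D-/- 1 or Sema6D-/- 2 left 3 members past the threshold each time. The 497 became 290 without wild type 1, 260 without wild type 2, 87 without Sema6D-/- 1 and 164 without Sema6D-/- 2. All 7 passed the filter of 1 FPKM, but Slfn4 did so only through the label wild type. In RNA from a whole culture, fewer cells of a type and less RNA per cell cannot be told apart. Differences below are in log2(FPKM + 1), Sema6D-/- minus wild type, with the SE of the fit, and means carry the SD of n = 2 libraries.

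Among the short members, Slfn1, described for its brake on the growth of thymocytes, was at 19.3 and 22.7 FPKM for wild type and at 4.54 and 7.21 for Sema6D-/-. Its lowest wild type value was 2.68 times its highest Sema6D-/- value. The means were 21.0 ± 2.35 and 5.87 ± 1.89 FPKM, so that 28.0% of the wild type level was left, with a difference of -1.70 ± 0.20. This difference ranked 49 from the lowest among the 10115 genes tested.

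Slfn2, the most abundant member, was at 221 and 246 FPKM for wild type and 184 and 179.7 for Sema6D-/-. The gap was the narrowest of the family, with the lower wild type value not far above the higher Sema6D-/- value. The means of 233 ± 17.4 and 182 ± 3.30 FPKM left 78.0% of the wild type level, a difference of -0.36 ± 0.06 at rank 675. The estimated depth behind these values was 2515 to 3742 fragments per library.

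Slfn4, of the intermediate group, is a gene of monocytes and young macrophages. It had the largest relative difference: 3.67 and 3.72 FPKM for wild type against 0.323 and 0.594 for Sema6D-/-. Its wild type libraries were 1.01 times apart and its Sema6D-/- libraries 1.84 times. The means of 3.70 ± 0.0342 and 0.458 ± 0.192 FPKM stood in a ratio of 8.07, which rests on about 10 and 20 fragments in the Sema6D-/- libraries against 129 and 135. The difference of -1.69 ± 0.15, at rank 50, understates this ratio because 1 FPKM is added before the logarithm.

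Slfn3, its near copy, had a smaller difference. It was at 5.19 and 5.44 FPKM for wild type and 2.87 and 3.50 for Sema6D-/-, 1.67 times apart in the means of 5.32 ± 0.177 and 3.19 ± 0.442. The difference was -0.60 ± 0.11. About 46 to 98 fragments per library lay behind it, some of which could belong to Slfn4.

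Of the long members, Slfn5 has a counterpart in humans that acts in the nucleus and responds to interferon. Its values were 91.5 and 96.6 FPKM for wild type and 48.3 and 55.7 for Sema6D-/-. The means of 94.0 ± 3.62 and 52.0 ± 5.17 FPKM left 55.3% of the wild type level, with a difference of -0.85 ± 0.08 at rank 156. With 2370 to 5284 estimated fragments per library and few shared windows, it is the best measured member beside Slfn2.

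Slfn8 was at 20.3 and 24.4 FPKM for wild type and at 12.8 and 15.1 for Sema6D-/-, with means of 22.4 ± 2.89 and 14.0 ± 1.59 and a difference of -0.64 ± 0.12. Slfn9 was at 3.42 and 3.50 FPKM against 1.45 and 2.18, with means of 3.46 ± 0.0599 and 1.81 ± 0.519 and a difference of -0.68 ± 0.16. These near copies thus had 62.4% and 52.4% of the wild type level left, and Slfn9, the member that did not pass the threshold, had the wider spread under Sema6D-/- (1.51 times between its libraries, against 1.18 times for Slfn8). By difference, Slfn9 ranked 247, Slfn8 277 and Slfn3 317 from the lowest.

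Summed over the family, the level was 365 and 402 FPKM for wild type and 255 and 264 for Sema6D-/-, a ratio of 1.48 in the means. Slfn2 weighs most in this sum: without it the other 6 came to 143 and 156 against 70.4 and 84.2 FPKM, a ratio of 1.94. The make-up of the family differed accordingly. Slfn2 was 60.7% and 61.1% of the sum for wild type and 72.4% and 68.1% for Sema6D-/-, whereas Slfn1 was 5.30% and 5.63% against 1.78% and 2.73%. Slfn4 was 1.01% and 0.926% against 0.127% and 0.225%, and Slfn8 kept an overlapping share, 5.58% and 6.07% against 5.04% and 5.71%.

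**Figure D3:**
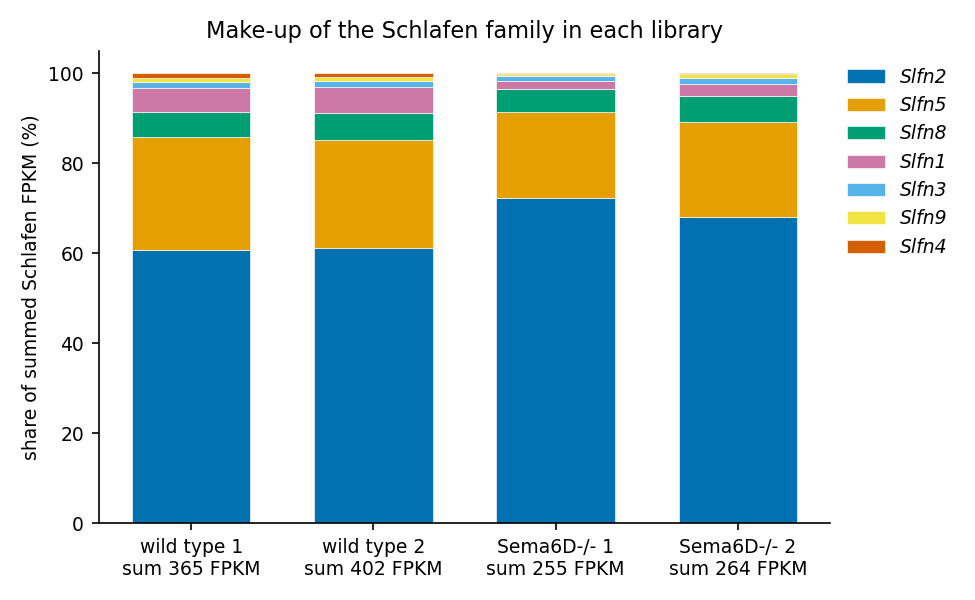
Share of each Schlafen gene in the summed FPKM of the 7 genes (%, stacked bars) in the 4 libraries, with the sum under each bar. The Slfn2 part is 60.7% and 61.1% in the wild type bars and 72.4% and 68.1% in the Sema6D-/- bars.

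Libraries of the same label were ordered alike by most members. All 7 were higher in wild type 2 than in wild type 1, while 48.6% of all genes tested were. In Sema6D-/- 2, 6 of 7 were higher than in Sema6D-/- 1 (49.9% of all genes tested), with Slfn2 as the exception. The distances between profiles, over the 4 libraries and after centring each gene on its own mean in log2(FPKM + 1), put Slfn1 next to Slfn4 (0.256) and Slfn3 next to Slfn9 (0.141) and Slfn8 (0.146). The near copies Slfn3 and Slfn4 were 1.10 apart, Slfn8 and Slfn9 0.199. These are descriptions over libraries that all genes share. They depend on the 1 FPKM added, which shrinks the difference of a low gene such as Slfn4. Wild type means were 3.58 times the Sema6D-/- means for Slfn1 and 8.07 times for Slfn4. With a pseudocount of 0.1 FPKM their differences were -1.85 and -2.81.

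The neighbourhood of the cluster was measured next. The pseudogene Slfn10-ps, which lies between Slfn8 and Slfn2, was at 6.35 and 6.72 FPKM for wild type and 5.35 and 6.38 for Sema6D-/-. Its libraries overlapped between the labels, and it did not pass the threshold (-0.14 ± 0.10, adjusted p = 0.477 by limma). At 50 bases, 19.7% of its windows occurred in another gene, Slfn9 (13.5%) and Slfn8 (11.8%) foremost, and whether its difference departs from theirs was not tested. Slfn14-ps was listed at 0 to 0.0315 FPKM, and Slfnl1 and the antisense gene of Slfn5, listed as 1700003F17Rik, at 0 in all 4 libraries.

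Of the 10 genes on each side of the cluster, 8 were tested and 0 passed the limma threshold, with 0 also at an unadjusted p under 0.05. Their median difference was 0.04. The lowest was -0.19 ± 0.09 for Rffl, a ubiquitin ligase gene (adjusted p = 0.271). The closest expressed neighbour was AI662270, 8.4 kb past Slfn3, with 73.5 and 79.1 FPKM for wild type and 83.2 and 76.7 for Sema6D-/- (0.07 ± 0.06, adjusted p = 0.579). Ap2b1, an adaptor subunit of clathrin coats, was at 37.1 and 37.5 against 39.3 and 39.9 FPKM (0.08 ± 0.05, adjusted p = 0.352).

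**Figure D4:**
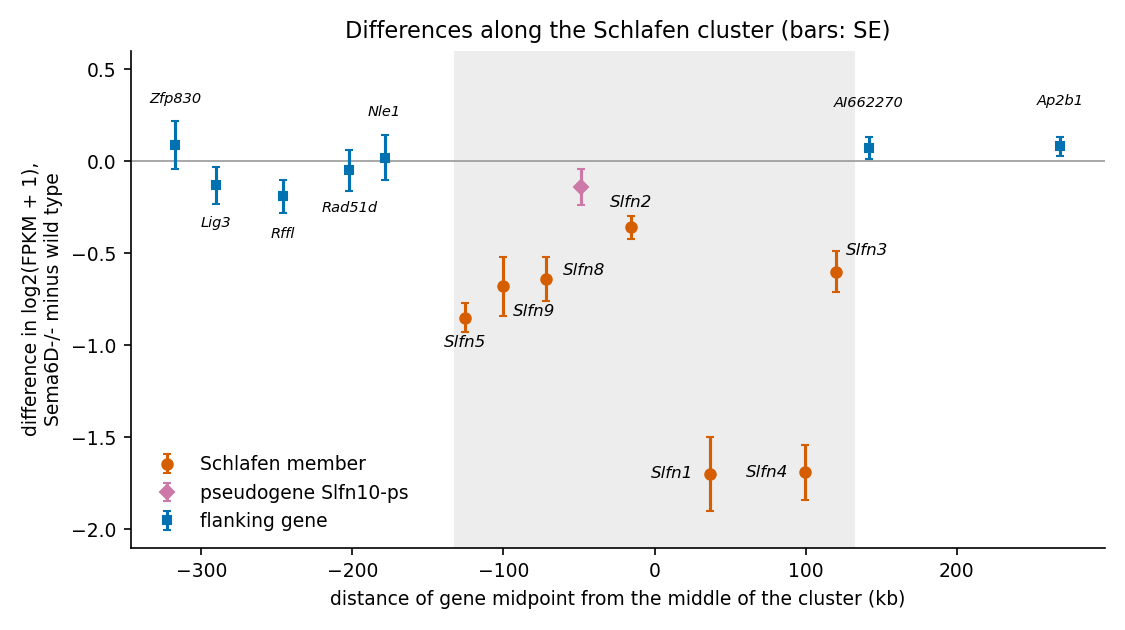
Difference in log2(FPKM + 1), Sema6D-/- minus wild type, with SE bars, against the distance of each gene's midpoint from the middle of the Schlafen cluster (kb, cluster span shaded). The 7 members lie between -0.36 and -1.70, Slfn10-ps at -0.14 and the 7 flanking genes drawn between -0.19 and 0.09.

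Interferon receptors and the kinases and factors that act after them were taken from a list of 19 genes, of which 18 were tested. This list and those below were chosen with earlier results of these data known. Their counts are therefore descriptions and give no independent support. Lower in Sema6D-/- and past the threshold were 7 of 18, among them Usp18, Irf7, Stat2, Jak2, Ifngr2 and Irf9, and higher were 2 (Irf1 and Irf8), against 4.91% and 4.80% of all genes tested. The median difference was -0.14, beside 0.003 over all genes tested. Jak2 (-0.40 ± 0.07, adjusted p = 0.0244 by limma) and Ifngr2 (-0.22 ± 0.04, adjusted p = 0.0404) had smaller differences, nearer the threshold, than Irf7 and Usp18. With 1 library left out in turn, neither call held throughout. The difference then ran from -0.47 to -0.33 for Jak2 and from -0.24 to -0.19 for Ifngr2. Irf7, the factor that amplifies interferon responses, was at 278 and 270.2 FPKM for wild type and at 77.5 and 102 for Sema6D-/- (-1.61 ± 0.13, adjusted p = 0.00327). Its values, like those of Usp18, a feedback inhibitor of the interferon receptor at 43.2 and 40.8 against 12.2 and 15.3 FPKM (-1.55 ± 0.11, adjusted p = 0.00246), left a wide gap between the labels.

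Stat2 and Irf9, which act at the interferon-stimulated response element, were lower. Stat2 was at 50.6 and 51.7 against 22.4 and 29.3 FPKM (-0.97 ± 0.12, adjusted p = 0.0119), and Irf9 at 43.9 and 43.7 against 29.7 and 35.6 (-0.42 ± 0.09, adjusted p = 0.0494). With 1 library left out in turn, Irf7, Usp18 and Stat2 passed all 4 times. Irf9 passed only without Sema6D-/- 2, with 0.145 as its highest adjusted p. The number lower became 4 without wild type 1 and 3 without Sema6D-/- 1. The higher ones, Irf1 (0.28 ± 0.05, adjusted p = 0.0284) and Irf8 (0.21 ± 0.05, adjusted p = 0.0496), were named after their values were seen, and neither passed with any library left out, with adjusted p-values up to 0.179 and 0.226. Not past the threshold were the receptor genes Ifnar1 (-0.22 ± 0.05, adjusted p = 0.0636) and Ifnar2 (-0.02 ± 0.05, adjusted p = 0.891). Of 15 interferon genes, 14, Ifnb1 included, were listed at 0 in every library, and Ifng was listed at 0.101 and 0.0984 FPKM for wild type and at 0 in both Sema6D-/- libraries.

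Genes for other proteins that cut or sense RNA in antiviral defence formed a list that was also chosen with earlier results known. Of 25, all tested, 17 were lower in Sema6D-/- and past the threshold and 0 higher (0 also at an unadjusted p under 0.05), beside 4.91% and 4.80% of all genes tested, with a median of -0.62. The number lower was 10 without wild type 2 and 5 without Sema6D-/- 1. Oas3, which senses double-stranded RNA, was at 85.4 and 85.3 FPKM for wild type and 33.1 and 41.0 for Sema6D-/- (-1.19 ± 0.10, adjusted p = 0.00417). Ifit2, which binds foreign RNA, was at 35.8 and 41.2 against 12.6 and 16.0 FPKM (-1.37 ± 0.12, adjusted p = 0.00496). The RNA sensors Dhx58 (-0.71 ± 0.06, adjusted p = 0.00479) and Ddx58 (-0.77 ± 0.07, adjusted p = 0.00513) were lower too, and of these 4 genes only Ddx58 missed the threshold with a library left out (adjusted p = 0.0543 without Sema6D-/- 1).

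The transfer RNA side, on which long Schlafen proteins act, gave no call. Of 20 genes for cleavage, end processing and repair of transfer RNA, 18 were tested and 0 passed the limma threshold, with 2 lower and 2 higher at an unadjusted p under 0.05 and a median of -0.04. The smallest p belonged to Tsen15, a subunit of the splicing endonuclease, at 4.79 and 4.36 against 6.19 and 6.09 FPKM (0.36 ± 0.09, adjusted p = 0.0717). Rnh1, the inhibitor of the nuclease angiogenin, was at 399 and 382 against 347 and 359 FPKM (-0.15 ± 0.05, adjusted p = 0.130).

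**Figure D5:**
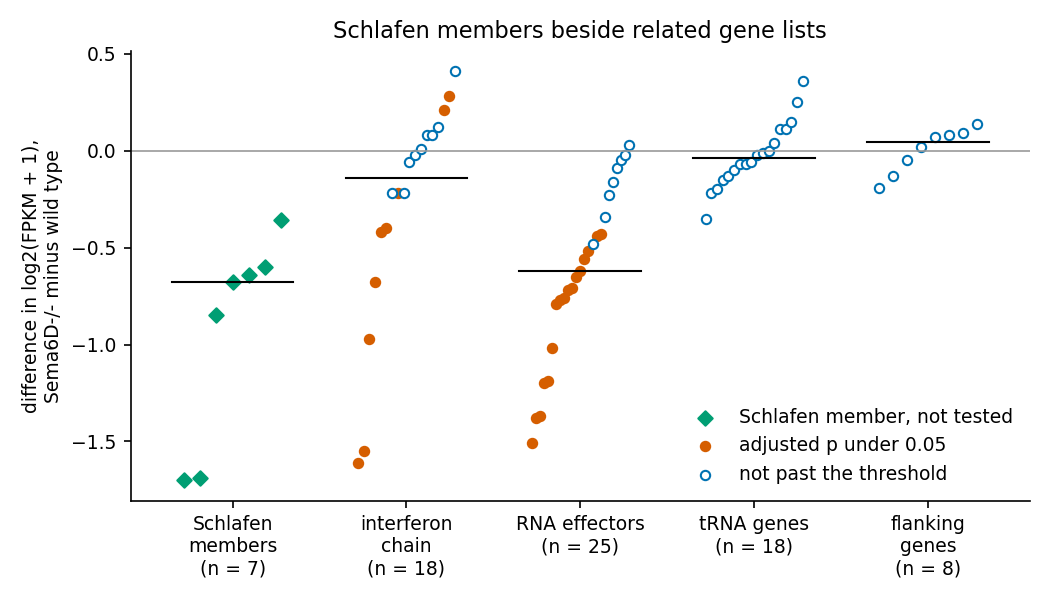
Difference in log2(FPKM + 1), Sema6D-/- minus wild type, of the 7 Schlafen members (diamonds, not tested) and of the tested genes of 4 other sets, filled where the adjusted p was under 0.05, with a line at each median. Medians are -0.68 for the members, -0.14 for the interferon chain, -0.62 for the RNA effectors, -0.04 for the transfer RNA genes and 0.04 for the flanking genes.

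The genes with the profile most like each member over the 4 libraries were found among 10107 genes, by the same centred distance. For Slfn1 they were Rpl38 (0.231), Oasl1 (0.233) and Irf7 (0.238), and for Slfn4 Irf7 (0.128), Slco4a1 (0.139) and Grap (0.145). The neighbours of Slfn4 depend on the 1 FPKM added. Its wild type mean was 8.07 times its Sema6D-/- mean, against 3.05 times for Irf7. Slfn5 was closest to Il21r (0.023), BC006779 (0.050) and Cmpk2 (0.061), Slfn8 to Gbp9 (0.034), Rsad2 (0.056) and H2-Eb1 (0.072), and Slfn9 to Oas1g (0.044), Ifih1 (0.075) and Fbxw17 (0.080). Slfn3 had Bhlhe41 (0.040), Nlrc5 (0.045) and Parp9 (0.053) nearest. Slfn2 stood by other genes, Pold1 (0.014), Jund (0.025) and 4632415K11Rik (0.028). For Il21r, the nearest to Slfn5, the values were 50.1 and 53.4 FPKM for wild type and 26.3 and 30.9 for Sema6D-/-.

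Markers of the cells such a culture can hold were read beside the family, against 4.80% of all genes tested that were called higher and 4.91% called lower. The macrophage list summed to 6069 and 5789 FPKM for wild type and 5463 and 5475 for Sema6D-/-, with 10 of 10 tested, 1 higher (Emr1) and 4 lower (Cd14, Aif1, Itgam and Lyz2). The inflammatory monocyte list summed to 54.5 and 57.5 against 30.6 and 35.4 FPKM, with 1 of 7 tested genes higher (Ly6c2) and 4 lower (Ms4a4c, F13a1, Hp and Ccr2). Ms4a4c was at 13.1 and 14.6 against 1.31 and 1.82 FPKM (-2.54 ± 0.13, adjusted p = 0.00109). The neutrophil list summed to 294 and 273 against 811 and 671 FPKM, with 6 of 12 tested genes higher and 2 lower, Csf3r (-0.68 ± 0.07, adjusted p = 0.00756) and Mmp9 (-1.21 ± 0.21, adjusted p = 0.0290). S100a8 and S100a9 made up 171 and 169 against 638 and 521 FPKM of this sum, and the other 11 genes 123 and 104.0 against 173 and 149. S100a9 was at 98.8 and 89.6 against 343 and 289 FPKM (1.73 ± 0.09, adjusted p = 0.00142). Dendritic markers summed to 897 and 919 against 600.03 and 637 FPKM, with 2 of 4 tested genes lower (Bst2 and Itgax), which made up 855 and 873 against 559 and 590.2 FPKM. The other 8 dendritic genes summed to 42.0 and 46.0 against 40.6 and 46.5 FPKM, nearly all of it Batf3 (-0.01 ± 0.09, adjusted p = 0.982). Of these 8, 6 were under 1 FPKM in every library, among them Zbtb46 and Xcr1, which define dendritic cells. Defining genes of lymphoid cells were at or near 0: 5 B cell genes, Pax5 among them, and the natural killer gene Ncr1 were listed at 0 in every library, no B cell or erythroid gene reached the filter, and in the T and natural killer list only Il7r did. The fibroblast list summed to 5.97 and 11.5 against 8.24 and 5.43 FPKM, with 0 of 3 tested genes past the limma threshold (0 at an unadjusted p under 0.05). With a library left out, these counts changed too. Without Sema6D-/- 1 the calls were 0 higher and 1 lower for macrophage, 0 and 2 for monocyte, 4 and 1 for neutrophil and 0 and 1 for dendritic markers, and without Sema6D-/- 2 they were 1 and 2, 0 and 2, 5 and 1, and 0 and 1. Without wild type 1, 2 macrophage markers were higher, and without wild type 2, 2 monocyte markers were lower. These counts were added after the data had been seen. The part of the monocyte, neutrophil and dendritic values in the Schlafen differences was not tested.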

How the data were processed

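Each of the 4 libraries was deposited as a list of 23284 symbols with FPKM values, normalized between libraries by Cuffnorm 2.2.1 on mm10 after TopHat2 2.0.13, Bowtie2 2.2.3 and SAMtools 0.1.19, per the submitters' processing notes. Per the labels' protocols, RNA came from a microRNA isolation kit and libraries from the strand-specific SureSelect kit. No source used here names the annotation or the counting of multiply mapped reads. An exact 0 can be a failed estimate, since Gapdh was listed at 0 in 3 libraries. The 25 symbols without a value were left out. Depth, estimated from the steps of low values of 1904 genes with 1 transcript, was 8200000 to 9150000 fragments per library, and fragments per gene follow from it and GENCODE M21 transcript lengths. Pearson's r between libraries was 0.9693 and 0.9732 within a label and 0.9545 to 0.9604 between labels, over genes.

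On log2(FPKM + 1), differences of the 10115 genes whose mean reached 1 FPKM were fitted in R 4.3.3 by limma 3.58.1 (eBayes with an intensity trend, two-sided), with Benjamini-Hochberg adjustment over all of them. On simulated data of 10049 genes for this comparison, with independent normal scatter, changes were placed only in genes above about 5 FPKM. Of these, 88% of changes of 0.5 and 100% of changes of 1, 2 and 3 were recovered, with 6 false calls among 200. Slfn3, Slfn4 and Slfn9 lie below that level, so these shares do not cover them, and recovery in the real data was not measured. Coding sequences were aligned end to end (match 2, mismatch -2, gap opening -20, extension -1). A planned protein alignment was not run. The members and lists were chosen with earlier results of these data known. Named genes are the members, other Slfn symbols, flanking genes, up to 4 genes per list by smallest p, Ifnb1, Irf7 and Irf9, the 3 nearest profiles of each member and Sema6d. Other names were added after values were seen, and some items that the rule or searches gave are not reported here. Alternatives were pseudocounts of 0.1 and 5, no filter, a filter of 5 FPKM, 2 other scalings, eBayes without trend or robust, the title number as a block and each library left out.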

Additional observations from a re-analysis of the deposited data

How the results depend on the processing

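Under median-of-ratios scaling and quantile normalization all 7 members were lower without overlap. Leaving out a library or changing the pseudocount cannot end that, nor turn a sign, so those settings say nothing about it. Counts of calls changed. With no filter, 115 genes were higher and 99 lower, 0 Schlafen members, 1 flanking gene, 0 and 0 genes of the interferon chain (lower and higher) and 0 RNA effectors passed. Without the trend, 261 genes were higher and 327 lower, and the chain had 4 lower and 0 higher. With pseudocounts of 0.1 and 5, median-of-ratios scaling or quantile normalization, 1 gene of the chain was higher. The members' median difference of -0.68 became -0.86 with a pseudocount of 0.1 and -0.53 with 5, and Slfn4 moved from -1.69 to -2.81 and -0.67. With 1 library left out in turn, 72 to 276 genes were higher and 87 to 290 lower, 3 to 5 members passed, the chain had 3 to 5 lower and 0 to 1 higher, 5 to 14 RNA effectors were lower, and the members' median ran from -0.87 to -0.53. A label then keeps a lone library, assumed to vary like the others.

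Title numbers 1 and 2 recur under both labels. Deviations of libraries with the same number correlated at -0.0183 over 10115 genes. A correlation over all genes cannot tell whether such libraries share a mouse, day or batch. Of the members, 7 of 7 were higher in wild type 2 than in wild type 1, and 6 of 7 in Sema6D-/- 2 than in Sema6D-/- 1. With the number as a replicate block, 300 genes were higher, 4 members passed (not Slfn2, Slfn3 and Slfn9), and the chain had 4 lower and 0 higher. Depth limits Slfn4, at about 10 and 20 fragments per Sema6D-/- library, and 2 libraries per label limit every error given.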
